A study of Mus musculus with 18 samples.

Results

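Large outermost domains are the widest blocks of contact in a list of topologically associating domains, stretches of chromosome that touch themselves more than they touch their neighbours. They were chosen as the rows on autosomes that are at least 1 Mb long and lie inside no other row. This gave 1365 domains, 10.1% of the 13483 domains in the list and 27.9% of the 4894 autosomal domains that lie inside no other. The size and the nesting that chose them were read from the same list, so those values are descriptions only. The other list of the series holds 20926 loops, pairs of 10000 bp anchors with more contact than the map around them.

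Both lists come from Micro-C, which cuts chromatin between nucleosomes and ligates the fragments that were neighbours in the nucleus. All 18 samples were G1E-ER4 erythroblasts, a mouse red cell precursor line without its own GATA1 that carries GATA1 joined to a hormone receptor domain. Every sample came from the LDB1-AID subline, in which LDB1, a protein that bridges distant transcription factor complexes, has an auxin-inducible degron. The groups were 9 untreated samples and 9 samples given auxin for 4 h. The labels do not say whether the subline is 1 clone, or whether the GATA1 fusion was switched on. Each list is a single one for the series with no value per sample, so no effect of auxin and no spread between replicates could be measured, and no test was made. The spread over the 19 autosomes describes differences between chromosomes within these lists and is no measure of the spread between replicates. Intervals cover the counting of loops, anchors or domains only.

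Domains are generally held to arise as the cohesin complex draws chromatin into growing loops until it meets barriers, most often the protein CTCF. Loop anchors therefore often sit at domain edges, with the anchor that opens a loop just inside the start of a domain and the anchor that closes it just inside the end. A large domain can hold smaller ones, whose edges are called inner boundaries here, and contacts between enhancers and promoters are thought to form more readily within such a block than across its edges.

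The large domains had sizes with a median of 1330 kb, and the middle 50% fell between 1140 and 1590 kb. At least 1500 kb was reached by 449 of them (32.9%), and 10 were exactly 2000 kb, the longest size. They numbered 23 on chromosome 19 and 124 on chromosome 1. Being outermost did not mean standing alone. Of the 1365, 1356 overlapped another outermost domain in part, and 868 overlapped another large one. In 453 cases (33.2%) the overlap reached 50% of the longer of the pair, and in 93 (6.81%) it reached 80%. Summed, their lengths came to 1892 Mb, but the sequence they covered was 1518 Mb, or 63.0% of the autosomal span of the lists. For totals, spans and shares of loops, each loop was therefore counted once, in the smallest large domain that held both anchor midpoints, and densities per Mb refer to sequence covered unless stated otherwise. Where domains are described one by one or grouped by their number of loops, every loop inside a domain counts for it, and 919 loops lay inside more than 1.

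At the size limit the values were close on both sides. The 243 outermost domains from 1.0 to 1.1 Mb held a mean of 2.81 nested domains and 6.61 loops per Mb of summed length. The 265 just under the limit, from 0.9 Mb, held 2.42 nested domains and 6.87 loops per Mb.

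Large outermost domains were mostly subdivided. Of the 1365, 1313 held at least 1 other domain and 52 (3.81%) held none. The median was 4 nested domains, with quartiles of 3 and 6 and a maximum of 17, or 3.30 nested domains per Mb of summed length. The mean number per chromosome was 4.54 ± 0.475 (SD over 19 autosomes), lowest on chromosome 3 at 3.64 and highest on chromosome 11 at 5.61. A longer domain has room for more, and the median rose from 3 below 1.2 Mb to 7.5 from 1.8 Mb up. The number per Mb also differed by size, at 2.71 in the former and 3.94 in the latter.

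Levels were counted along the longest chain of domains inside one another. There was 1 level in 443 domains (32.5%), 2 in 678 (49.7%), 3 in 176 (12.9%) and 4 in 14, and single domains reached 5 and 6. At least 3 levels were found in 2.95% of domains under 1.2 Mb and in 42.0% of those of 1.8 Mb or more. On chromosomes the share with such depth ran from 5.26% on chromosome 3 to 21.2% on chromosome 2. Nested domains together covered a median of 87.6% of the length of a large domain, with quartiles of 66.7 and 99.1%.

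**Figure D1:**
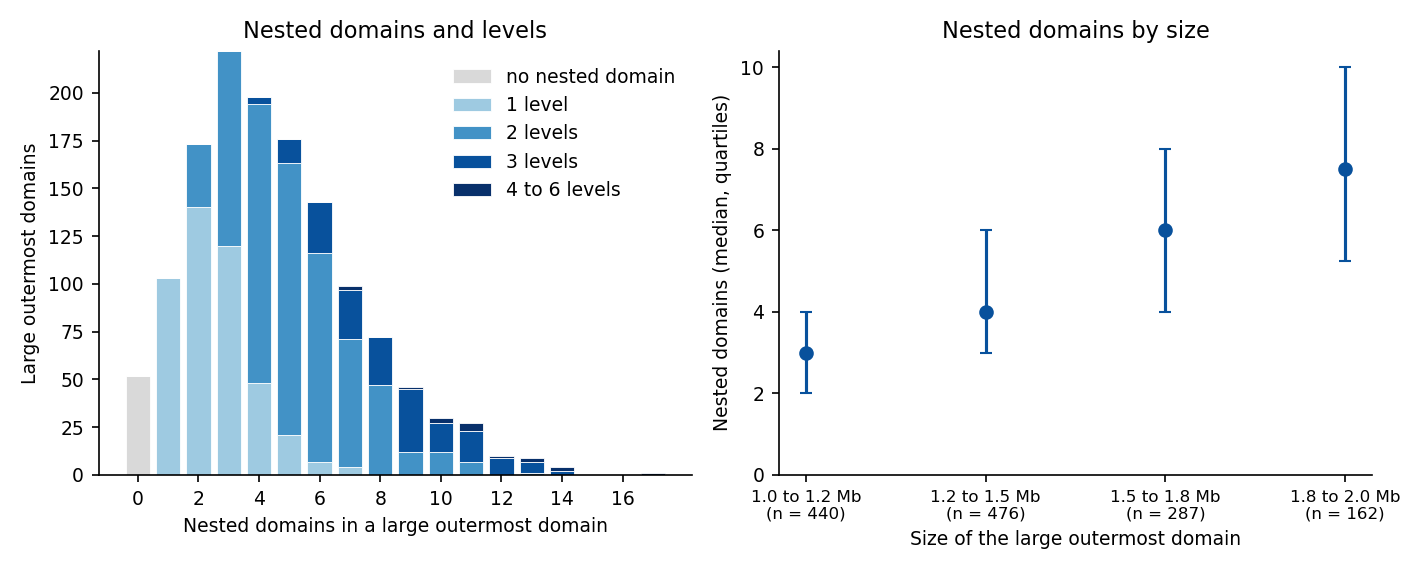
Left, number of large outermost domains (y) by the number of domains nested in each (x), coloured by the number of levels. Right, median nested domains (points) with quartiles (bars) by size of the large domain. Most of the 1365 domains held a few nested domains in 1 or 2 levels, and the median went from 3 in the shortest class to 7.5 in the longest.

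The nested domains were 5472 distinct rows, of which 3964 (72.4%) held no further domain. Those at level 1 had a median size of 440 kb, those at level 2 of 290 kb, and those at level 3 or deeper of 250 kb. Of the 1313 subdivided domains, 518 (39.5%) shared both their start and their end with level 1 domains to within 20 kb. In 215 (16.4%) neither end was shared. A typical large domain was thus bordered by nested domains on at least 1 side, with a median of 3 at level 1.

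The most subdivided domains differed widely in loops. The domain with the most nested rows lies on chromosome 6 at 129520001 to 131440000 (mm9). It held 17 nested domains of 100 to 1470 kb in 5 levels but 2 loops, 1 of 54 kb and 1 of 1770 kb. There were 4 domains with 14 nested domains. The longest of these, on chromosome 7 at 48535001 to 50505000, had 6 levels and 21 loops of 30 to 900 kb. The next in size, on chromosome 5 at 114175001 to 115945000, had 4 levels and 51 loops. The 14 domains with 4 levels together held 9.86 loops per Mb of summed length, and 3 of them held 0 loops. Among those 3 was the longest of the 14, on chromosome 11 at 91025001 to 92985000, with 10 nested domains.

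Large outermost domains held 8565 distinct loops, 41.7% of the 20535 on autosomes, at 5.64 loops per Mb. The 3529 smaller outermost domains held 11366 loops at 8.27 per Mb. These are entries of the list, and some overlap another at both anchors. With such entries kept as 1 contact, the large domains had 5.43 per Mb. The large ones had the lower density on 19 of 19 chromosomes, with means of 5.70 ± 1.69 and 8.38 ± 2.10 loops per Mb (SD over 19 autosomes). Chromosome 11 was highest for both, at 10.5 and 13.2 loops per Mb. The gap was narrowest on chromosome 12, where the large domains reached 0.984 of the density of the smaller ones, and widest on chromosome 15, at 0.430. Since a small domain cannot hold a long loop, the same was asked of loops under 200 kb, which were at 3.28 and 5.43 per Mb and again lower in the large domains on all 19 chromosomes.

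Anchors give a measure that does not depend on whether a loop fits. Sequence covered by large outermost domains alone, 985 Mb, had 10.3 distinct anchors per Mb. Sequence covered by smaller outermost domains alone, 842 Mb, had 19.7 per Mb, and the 533 Mb that both covered had 9.94. The first value was below the second on 19 of 19 chromosomes, at 10.1 ± 2.56 against 19.7 ± 3.67 (SD over 19 autosomes). Density fell steadily across size classes, from 28.2 anchors per Mb in outermost domains under 250 kb to 12.9 from 750 to 1000 kb, 12.1 from 1000 to 1200 kb and 7.98 from 1800 kb up. No step stood at 1 Mb.

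**Figure D2:**
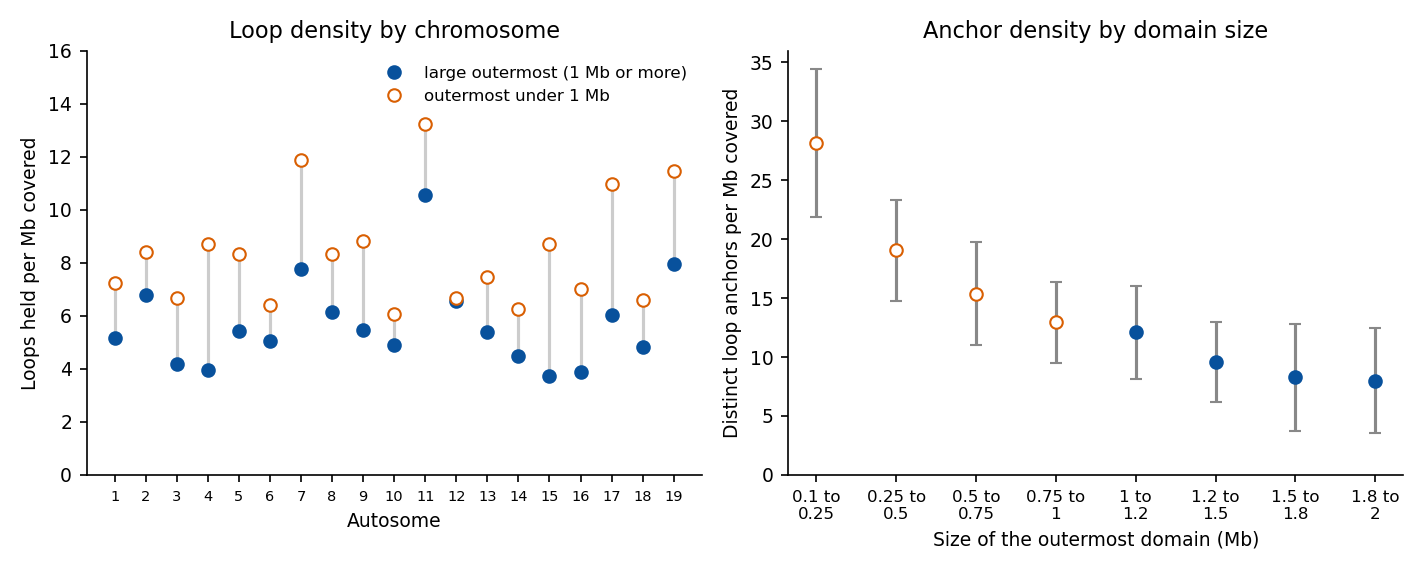
Left, loops held per Mb of covered sequence (y) on each autosome (x) for large outermost domains (filled) and outermost domains under 1 Mb (open). Right, distinct loop anchors per Mb of covered sequence (y) by size of the outermost domain (x), with bars of 1 SD over 19 autosomes. The filled points lie below the open ones on all 19 chromosomes, and anchor density goes from 28.2 to 7.98 per Mb with no step at 1 Mb.

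Domains of at least 1 Mb that lie inside another, 319 on autosomes, held 2.21 loops per Mb, less than the large outermost ones. On the X chromosome, which the rule leaves out, 78 outermost domains of at least 1 Mb held a median of 5 nested domains but 1.25 loops per Mb. Only 9 of the 1365 domains overlapped no other outermost domain even in part, and these held 1.71 loops per Mb. Taking the domains from the largest down and leaving out any that overlapped one already taken left 903, with 5.63 loops per Mb.

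Loops were spread very unevenly over the large domains. A large domain held a median of 2 loops, and 67 at most. With every loop counted for each domain around it, there were 488 domains (35.8%) with 0 loops, 345 with 1 to 4, 360 with 5 to 19 and 172 (12.6%) with 20 or more. Outermost domains under 1 Mb were similar by count, with 0 loops in 38.0% and a median of 2 loops. Per Mb of its own length, such a domain held a median of 3.90 loops, and a large domain 1.41. The richest 136 large domains accounted for 45.6% of all cases of a loop inside a large domain. By chromosome the share without a loop ran from 15.8% on chromosome 11 to 50.8% on chromosome 16. Sizes hardly differed, with medians of 1330 kb in the domains without loops and 1320 kb in those with 20 or more.

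Subdivision went with loops only loosely. Domains with 20 or more loops had a median of 6 nested domains and 4.50 per Mb of summed length, while domains with 0 loops had a median of 4 and 3.05 per Mb. From the other side, with a loop counted once in each group that held it, the 52 undivided domains held 1.59 loops per Mb, those with 1 or 2 nested domains 3.21, those with 3 to 5 held 5.27 and those with 6 to 9 held 6.66. The 81 with 10 or more held 6.10. Across the 1365 domains, Spearman's rho between nested domains per Mb and loops per Mb was 0.22, given as a description because many of these domains share sequence.

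The 5 densest domains lay on 5 chromosomes. On chromosome 12, positions 115880001 to 117250000 (mm9) held 67 loops, or 48.9 per Mb, with spans of 34 to 800 kb. Its 4 nested domains covered 71.0% of it, and 36 of the 67 loops lay inside 1 of them. Another 27 lay wholly in the 390 kb before the first nested domain. On chromosome 10, positions 79115001 to 80175000 held 46 loops (43.4 per Mb), of which 44 lay inside 1 of 9 nested domains, and their median span was 80 kb. Chromosome 19 at 5385001 to 6385000 had 41 loops and the same median. Chromosome 17 at 28305001 to 29675000 and chromosome 8 at 73215001 to 74665000 had 53 loops each, at 38.7 and 36.6 per Mb, with medians of 122 and 105 kb. The median span was thus 80 to 122 kb in 4 of these domains, and 172 kb in the one on chromosome 12.

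The longest domains without a loop reached the top of the size range. They lay on chromosome 3 at 23575001 to 25575000, chromosome 4 at 83445001 to 85445000, chromosome 12 at 107335001 to 109325000, chromosome 14 at 91375001 to 93365000 and chromosome 16 at 68605001 to 70585000. None was undivided: they held 10, 11, 11, 8 and 5 nested domains. The first 2 are among the 10 domains of 2000 kb, which held 4 to 11 nested domains and 0 to 27 loops, with a median of 1 loop. Merged where they overlapped or touched, the 488 domains without loops formed 313 stretches that covered 559 Mb, while all 1365 large domains formed 684 stretches. The longest of the 313, on chromosome 1 at 109985001 to 116905000, was 6920 kb of 6 large domains. It had 41 domains, 0 loops and 1 anchor inside. A domain without loops can still hold single anchors or overlap a large domain with loops, so the 559 Mb is not all free of loops. Another stretch, on chromosome 1 at 146245001 to 152185000, had 1 loop inside. How much of such a stretch could be mapped was not analysed here, and a contact below the caller's threshold would be missing from the list.

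**Figure D3:**
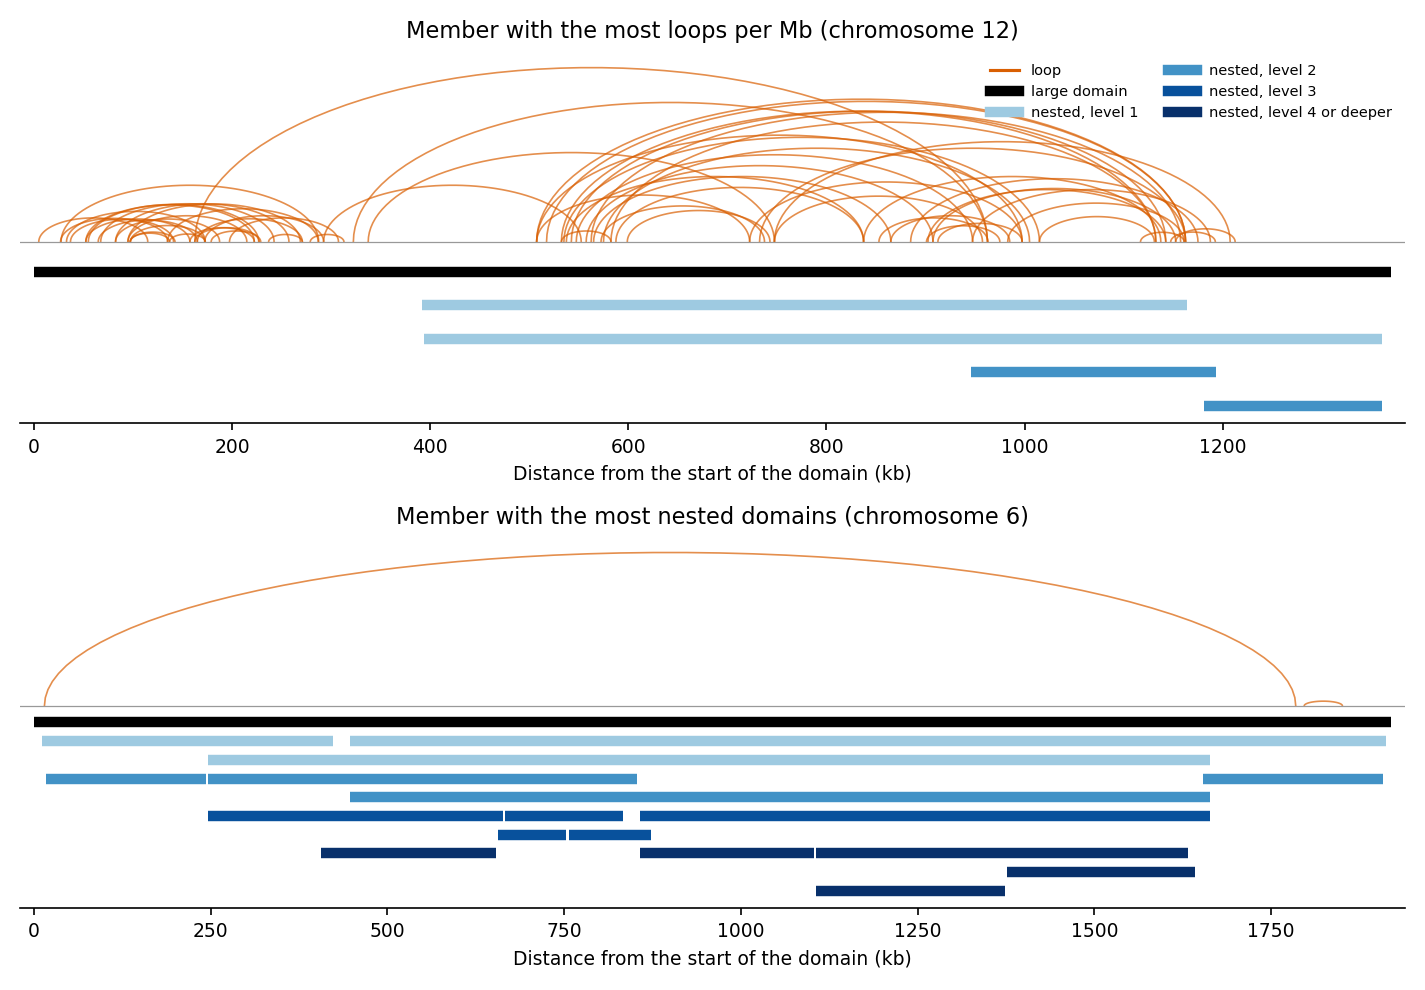
Loops (arcs joining anchor midpoints) above the large outermost domain (black) and its nested domains (blue, darker with level), by distance from the start of the domain in kb (x). The arcs' height follows span and carries no measured value. The chromosome 12 domain has 67 loops over 4 nested domains, and the chromosome 6 domain has 2 loops over 17.

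The loops in large outermost domains were short against the domains that held them. Their median span was 165 kb (95% interval 160 to 170 kb), with the middle 50% between 90 and 300 kb, and the extremes were 18 and 1815 kb. Over chromosomes the median was 166 ± 22.0 kb (SD over 19 autosomes), from 125 kb on chromosome 17 to 212.5 kb on chromosome 13. A loop took up a median of 12.2% of its large domain, and 506 loops (5.91%) took up 50% or more. Only 9 joined the start of a large domain to its end, with both anchors inside it and within 20 kb of the edges. This limit leaves out the distance of 30 kb inside the start, where the lower-coordinate ends of loops were most frequent.

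Spans in smaller outermost domains had a median of 140 kb, below that of the large domains on 17 of 19 chromosomes. The size of the holding domain limits the span, and in large domains 8.87% of loops spanned 500 kb to 1 Mb against 4.31% in the smaller ones. Even so, large domains held no more than 18.8% of the autosomal loops of 1 Mb or more, and 45.5% of those under 100 kb. Loops of this list lie on 3 coordinate grids whose spans differ. On the 2 kb grid the median was 76 kb in both large and smaller domains. The 5 kb grid gave 190 kb in large and 160 kb in smaller domains, and the 10 kb grid 250 and 210 kb. Loop-rich domains held shorter loops, with a median of 140 kb where there were 20 or more and 220 kb where there were 1 to 4.

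Inner boundaries were compared with the loops in several ways. An inner boundary was a start or end of a nested domain more than 20 kb from the edges of the large domain, and a large domain had a median of 5. Of the 8565 loops, 5985 (69.9%, 95% Wilson interval 68.9 to 70.8%) lay inside 1 nested domain. To set this against the geometry, every position in steps of 5 kb at which a loop of that span lies in the same large domain was enumerated. Averaged over loops, 60.6% of these positions lay inside 1 nested domain. The loops' share was above that of the positions on 19 of 19 chromosomes, by 9.64 ± 3.97 percentage points (SD over 19 autosomes).

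A loop was said to cross a boundary that lay between its anchor midpoints and over 20 kb from both. That was so for 2469 loops (28.8%, 95% Wilson interval 27.9 to 29.8%), while 44.2% of the enumerated positions crossed one. The loops' share was again lower on all 19 chromosomes, where it averaged 28.8 ± 4.63% (SD over 19 autosomes), from 19.3% on chromosome 19 to 38.1% on chromosome 13. Crossing 1 boundary was found for 1079 loops, crossing 2 for 583, and crossing 6 or more for 122, whose median span was 1007.5 kb.

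Crossing differed most by span. It was seen in 2.17% of loops under 100 kb, 11.6% from 100 to 200 kb, 47.8% from 200 to 500 kb and 91.3% from 500 kb to 1 Mb. The positions gave 7.35, 32.7, 71.4 and 94.998% for these classes. Loops from 100 to 500 kb were thus furthest below the positions, by over 20 percentage points, and among the 157 loops of 1 Mb or more 98.1% crossed a boundary, against 98.6% of positions. Loops under 100 kb lay inside 1 nested domain about as often as their positions, 82.4 against 80.2%. From 200 to 500 kb the shares were 62.6 and 48.4%.

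**Figure D4:**
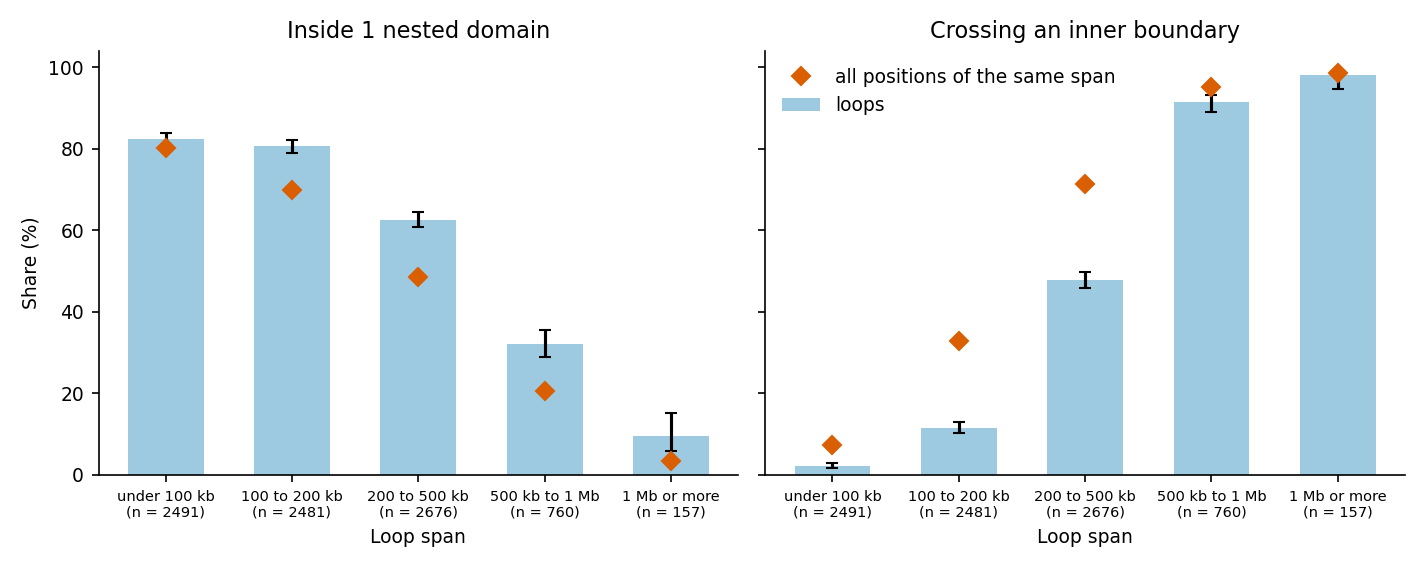
Share of loops in large outermost domains (bars, with 95% Wilson intervals) by loop span (x) that lie inside 1 nested domain (left) or cross at least 1 inner boundary (right). Diamonds give the share of all positions of the same spans in the same domains. From 200 to 500 kb, 62.6% of loops lie inside 1 nested domain against 48.4% of positions, and 47.8% cross a boundary against 71.4%.

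Crossing a boundary and staying in a nested domain were not exclusive. Of the 2469 crossing loops, 1073 (43.5%) still lay inside a nested domain, one that itself held or overlapped others. By the deepest level that held both anchors, 2580 loops (30.1%) lay in the large domain alone, 3973 (46.4%) reached level 1, 1775 (20.7%) level 2 and 237 (2.77%) level 3 or deeper. Median spans in that order were 290, 155, 120 and 90 kb. At each level of nesting the loop filled a similar part of the smallest nested domain around it, with medians of 40.5, 38.9 and 38.5%.

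Some loops ran past nearly every inner boundary of their domain. The loop of 1770 kb in the chromosome 6 domain with 17 nested domains crossed all 16 of its inner boundaries. In 5 domains the most that 1 loop crossed was 12, and the longest 2 of these are given. On chromosome 13, at 21845001 to 23845000, a loop of 1600 kb crossed 12 of 14, and the domain's 27 loops included 15 that crossed at least 1. On chromosome 11, at 23915001 to 25785000, a loop of 1815 kb crossed all 12, although 6 of the 8 loops there lay inside 1 nested domain.

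Loop anchors lay near inner boundaries more often than the length near them. Of 13822 distinct anchors, 2758 (19.95%, 95% Wilson interval 19.3 to 20.6%) were within 20 kb of an inner boundary. Stretches within 20 kb of one made up 13.0% of the domains' length, averaged over the same anchors. The anchors' share was higher than the length on 19 of 19 chromosomes. At 10 kb the shares were 12.02 and 7.16%, and at 40 kb 33.3 and 24.2%. The excess within 20 kb was uneven between the ends of loops. Of anchors at lower-coordinate ends 15.4% lay that near, and of those at higher-coordinate ends 24.6%, each against 13.0% of the length. For both ends of a loop to lie within 20 kb of inner boundaries was rare, at 4.30% of loops, and 62.9% had neither end there. That limit leaves out the distance of 30 kb at which lower-coordinate ends were most frequent.

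Left and right anchors, the ends of a loop at lower and higher coordinates, peaked at different distances from inner boundaries. Left anchors were most frequent 30 kb past the boundary, where 746 anchor and boundary pairs fell in 10 kb, and least frequent 40 kb before it, with 167. Their mean from 100 to 200 kb away was 334. Right anchors peaked at the boundary itself, with 751 pairs, and were fewest 40 kb past it, with 163, around a mean of 322.5 far away. The peaks were thus 2.23 and 2.33 times the far level, and the low points 0.50 and 0.505 of it. At 10 kb past the boundary both kinds were above their far level, with 501 left and 593 right pairs.

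**Figure D5:**
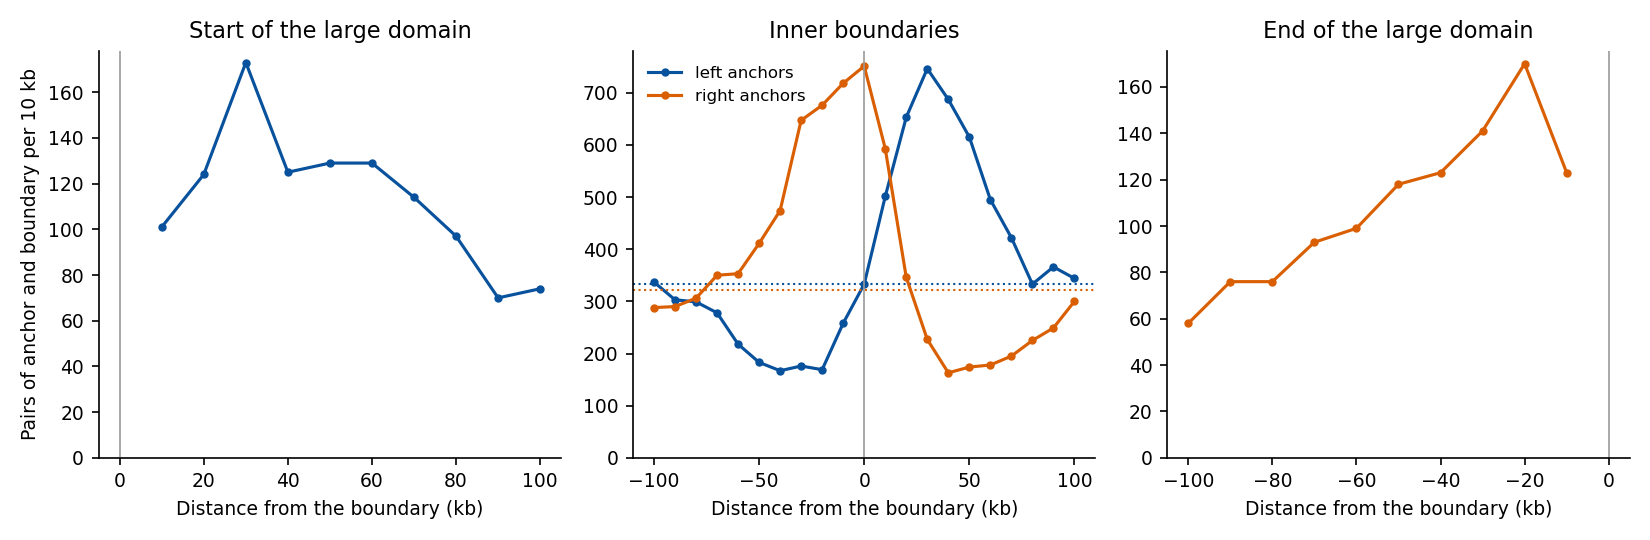
Anchor and boundary pairs per 10 kb (y) by distance in kb (x, positive towards higher coordinates) for loops held by large outermost domains. Blue marks left anchors, orange right anchors, and dotted lines the mean from 100 to 200 kb away. At inner boundaries left anchors peak at 30 kb with 746 pairs and right anchors at 0 kb with 751. Only left anchors are drawn at the start of the large domain and only right anchors at its end.

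At the outer edges the rule allows only 1 order, since both anchors of a held loop lie inside and a right anchor cannot lie close to the start. Left anchors were most frequent 30 kb inside the start, with 173 pairs, and right anchors 20 kb inside the end, with 170. Counted once per loop, so that shared anchors count repeatedly, 20.8% of loops had their left anchor in the first 10% of the large domain. The right anchor lay in the last 10% for 20.3%, while even placement of the same spans would give 13.7% in each. Counted in the same way, left anchors were below even placement from 10 to 60% of the length, and right anchors from 30 to 90%.

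The share of boundaries with an anchor of the list within 20 kb differed little by level. Of 6551 distinct inner boundaries, 2075 had one (31.7%, 95% Wilson interval 30.6 to 32.8%). The shares were 32.3% at level 1, 29.9% at level 2 and 33.3% at level 3 or deeper, with intervals that overlap. By number of loops in the domain the shares differed far more. An anchor was near 79.1% of 1239 inner boundaries in domains with 20 or more loops. With 1 to 4 loops it was 13.7% of 1612, and with 0 loops 1.65% of 2176. Domains with more loops hold more anchors, so this difference is partly built into the grouping. Edges of large domains that were no inner boundary of another had an anchor in 41.3% of 2082 cases (39.2 to 43.4%). They also border sequence outside the large domains, where anchors are denser (19.7 per Mb under smaller outermost domains alone), and the part of this in the share was not tested. Counted per anchor of the held loops, 15.2% were within 20 kb of an inner boundary in domains with 1 to 4 loops, 18.5% in those with 5 to 19 and 21.8% in those with 20 or more. The length near inner boundaries was 11.2, 11.4 and 14.5% in the same order, below the anchors' share in each.

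A left anchor after the boundary with a right anchor before it, both within 40 kb, was found at 956 inner boundaries (14.6%), and the opposite order at 244 (3.72%). In domains with 20 or more loops the first order was found at 628 of 1239 inner boundaries (50.7%), and the opposite at 13.3%. With 1 to 4 loops the shares were 1.43 and 0.744% of 1612. With 0 loops the first order was found at 2 of 2176. Either order needs a left and a right anchor near the boundary, so its rise with loops is partly built into the grouping. Corner loops, which join the start of a nested domain to its end within 20 kb, were seen for 257 of the 5472 nested domains (4.70%, 95% Wilson interval 4.17 to 5.29%). The limit of 20 kb leaves out the distance of 30 kb at which left anchors were most frequent, and no wider limit was used for corner loops. The share was 4.47% at level 1, 5.12% at level 2 and 4.93% deeper. For the large domains it was 1.98% (27 of 1365, interval 1.36 to 2.86%), counting anchors just outside the edges too, and for smaller outermost domains 5.13%.

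Anchors in large domains were often shared. Merging overlapping anchors gave 8845 anchor regions, and 7615 of the 8565 loops (88.9%) used a region that another held loop also used. Loops that overlap another at both anchors count as sharing by this definition. No such share is given for smaller outermost domains, so it cannot be called particular to the large ones. Regions with more loops lay nearer to inner boundaries: 16.2% of 4867 regions with 1 loop had their midpoint within 20 kb of one, 19.9% of 3426 regions with 2 to 4 loops, and 29.7% of 552 regions with 5 or more (95% Wilson interval 26.0 to 33.7%). Domains with 20 or more loops also had more nested domains per Mb (4.50 against 3.05 in those without loops), and the part of this in the result was not tested. Of the 552, 248 (44.9%) had all their loops on 1 side, against 73.7% of the regions with 2 to 4 loops. Fewer loops fall on 1 side more easily, so these shares are not like for like.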

How the data were processed

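Per the labels' protocols, chromatin from 18 samples was digested with micrococcal nuclease and ligated, and fragments the size of 2 nucleosomes were sequenced. The authors deposited 1 loop list and 1 domain list with coordinates in bp and no scores or sample columns. The genome build is mm9, per the submitters' processing notes, and the callers, their resolution and the samples they used are not given in the sources used here. The depth per sample is unknown here. The gene tables provided are of another build, so no gene or sequence was placed in the domains.

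Python 3.11.15 with numpy 2.4.6, pandas 2.3.3, scipy 1.17.1 and matplotlib 3.10.9 was used. Starts were read as counted from 0 and are printed counted from 1. A domain was nested if its coordinates lay within those of a longer one. A loop was held if both anchor midpoints lay inside. Loops were put on the 10 kb grid if both anchors started at multiples of 10 kb, on the 5 kb grid if one started 2500 or 7500 bp past a multiple, and otherwise on the 2 kb grid. The measures were tested on simulated lists with known nesting. No significance test was run. Members and measures were chosen with earlier results of these data known. Regions were named by fixed ranks: the 3 with most nested domains, most levels, largest size and most boundaries crossed by 1 loop, and the 5 with most and fewest loops per Mb, ties going to the larger. Since 10 domains share the largest size, these are described together. Alternatives to the definitions were computed.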

Additional observations from a re-analysis of the deposited data

How the results depend on the processing

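Of 28 alternatives, 9 of them chosen after seeing the data, 12 moved a value by less than its spread (SD over autosomes, or the Wilson interval of a share). The median of 4 nested domains became 5 for domains of at least 1.2 Mb, with an allowance of 20 kb at the ends, and without overlap between the large domains. The density of 5.64 loops per Mb became 3.28 for loops under 200 kb and 1.71 in the 9 domains that overlap no other outermost one, too few to read much from. The median span was 190 kb on the 5 kb grid. Loops inside 1 nested domain were 66.7% with whole anchors (positions 58.9%), 74.9% with ends extended by 20 kb (65.5%), 53.6% with innermost domains only (42.1%) and 71.0% without overlap (61.2%). Crossing loops were 38.8% with no margin (positions 52.9%), 25.2% with 40 kb (36.3%) and 22.6% for level 1 boundaries (36.8%). Anchors near inner boundaries were 12.02% at 10 kb (length 7.16%), 33.3% at 40 kb (24.2%) and 17.98% with boundaries on the 5 kb grid (11.7%). In each of these settings the loops and anchors stayed on the same side of the positions or the length. No paired analysis was possible because neither list has a column for any sample, and the alternative for auxin was not run for that reason. Unknown read depth limits what a missing loop means.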
